A study of Homo sapiens with 6 samples.

Results

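The 10 imprinted genes H19, IGF2, MEG3, DLK1, PEG3, PEG10, MEST, GRB10, PLAGL1 and PHLDA2 were followed, chosen by name from the 39282 genes of the deposited tables. All 10 had a row in every table. They were measured in 6 poly(A)-selected, stranded RNA-seq libraries from 2 human tumour lines: PA-1, from an ovarian teratocarcinoma and grown in EMEM, and TOV21G, from an ovarian clear cell carcinoma and grown in a mix of MCDB 105 and Medium 199, both with fetal bovine serum. All libraries came from cells transduced with a lentiviral short hairpin RNA. Each line gave 1 library with a scramble hairpin (the control) and 1 with each of 2 hairpins against MEX3A, which codes for an RNA-binding ubiquitin ligase. Each line is a single culture-adapted tumour line, so a difference between them is a difference between 2 lines in 2 media, and the line and its medium cannot be told apart.

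An imprinted gene is transcribed mainly from the copy inherited from 1 parent. The choice is written as DNA methylation in a control region in the egg or sperm, is kept through later divisions by factors such as ZFP57, TRIM28 and DNMT1, and is erased in germ cells. Imprinted genes lie in clusters in which paternally and maternally expressed genes share a control region, as IGF2 (paternal) and H19 (maternal) do, or DLK1 (paternal) and MEG3 (maternal). Many of them set fetal and placental growth, and germ cell tumours and other cancers often carry altered imprints. The tables hold 1 value per gene and do not separate the parental copies, so they give the summed output of both.

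Many imprinted genes start in CpG-rich sequence, where methylation can be placed. RefSeq windows of 300 bases (250 before and 50 after an annotated start, build GRCh38.p14) matched 5 of the 10 genes, with 19 windows in all: H19, MEG3, MEST, PLAGL1 and GRB10. Those printed are the windows with the most CpG of 4 of these genes, 5′ to 3′ on the gene's strand, with each CpG in capitals. They are shown because they run from a CpG-poor to a CpG-dense start.
H19, chr11:2001217-2001516, minus strand: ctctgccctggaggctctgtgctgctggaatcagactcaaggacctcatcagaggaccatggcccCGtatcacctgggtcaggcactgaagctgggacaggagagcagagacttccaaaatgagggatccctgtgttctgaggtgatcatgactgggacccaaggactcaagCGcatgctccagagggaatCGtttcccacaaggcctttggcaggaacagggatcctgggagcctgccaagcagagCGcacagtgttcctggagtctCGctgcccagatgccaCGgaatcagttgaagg
MEG3, chr14:100825858-100826157, plus strand: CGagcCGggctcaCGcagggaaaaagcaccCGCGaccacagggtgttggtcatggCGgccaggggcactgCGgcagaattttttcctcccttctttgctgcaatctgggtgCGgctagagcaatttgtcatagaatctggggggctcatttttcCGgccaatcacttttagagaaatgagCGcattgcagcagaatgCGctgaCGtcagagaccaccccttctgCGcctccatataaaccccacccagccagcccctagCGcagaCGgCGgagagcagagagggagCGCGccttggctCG
MEST, chr7:130491835-130492134, plus strand: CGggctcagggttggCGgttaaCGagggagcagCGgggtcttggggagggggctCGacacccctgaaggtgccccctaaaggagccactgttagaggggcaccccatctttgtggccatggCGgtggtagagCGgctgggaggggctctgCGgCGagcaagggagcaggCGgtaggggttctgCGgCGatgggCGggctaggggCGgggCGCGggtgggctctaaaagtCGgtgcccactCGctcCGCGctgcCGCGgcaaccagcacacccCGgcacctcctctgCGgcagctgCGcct
PLAGL1, chr6:144008210-144008509, minus strand: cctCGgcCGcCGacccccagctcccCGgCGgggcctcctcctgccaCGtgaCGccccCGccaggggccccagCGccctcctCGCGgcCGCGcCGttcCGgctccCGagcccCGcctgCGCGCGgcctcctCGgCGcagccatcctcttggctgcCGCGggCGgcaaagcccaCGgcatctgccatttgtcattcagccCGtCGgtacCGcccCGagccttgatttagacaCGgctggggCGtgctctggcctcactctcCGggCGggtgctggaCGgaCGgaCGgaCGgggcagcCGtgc

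The H19 window held 6 CpG, MEG3 19, MEST 25 and PLAGL1 39, and the CpG-richest GRB10 window (chr7:50792825-50793124, minus strand) held 49, against a median of 14 over all 35116 RefSeq windows. The PLAGL1 window lies over the annotated 5′ end of HYMAI, a non-coding RNA of the same locus. The 6 letters TGCCGC, which ZFP57 binds when methylated, were searched on both strands. They occurred in 9 of the 19 windows of these genes and in 16.7% of all windows. The 19 are not separate: the 3 MEG3 windows overlap, as do 2 pairs of MEST windows. Merged, they form 15 stretches, of which 5 hold the letters, 7 of the 9 windows lying in 3 of them. They occurred 3 times in the printed MEST window, 2 times in PLAGL1 and 1 time in MEG3, and were not found in the H19 window or the CpG-richest GRB10 window. A match is a description of the letters. Counts per gene do not say which start was used, and methylation was not measured.

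Total expected counts per library ran from 14654628 to 19495162, and the floor behind a count of 0 (3 counts) was 0.153 to 0.202 CPM (counts relative to the library total after TMM scaling). Intervals on counts cover counting error only. MEX3A, the targeted gene, stood at 30.0% and 40.0% of the control in CPM with hairpins 1 and 2 in PA-1, and at 51.2% and 42.3% in TOV21G. The labels give ovarian surface epithelial cells as the source. All 10 pluripotency and germ cell tumour markers were above 1 TPM in PA-1 and summed to 3458 to 4326 TPM (abundance corrected for transcript length and scaled to a fixed total), against 73.7 to 97.5 TPM in TOV21G, where NANOG, LIN28B, DPPA4, TDGF1 and L1TD1 were at 0. The 8 clear cell markers summed to 303, 1671 and 1538 TPM in the PA-1 control, hairpin 1 and hairpin 2 libraries and to 9718, 3608 and 6347 TPM in TOV21G, most of it SPP1, which reached 284 to 1618 TPM in PA-1. KRT7 was at 0 in PA-1, where ANXA4 was at 15.2 to 28.5 TPM and MUC16 at most at 0.12 TPM. Of the 8 surface epithelium markers, KRT8 and KRT18 had the largest values in each library (74.8 TPM or more), and UPK3B did not exceed 0.17 TPM in any library. MSLN and BNC1 were at 16.1 to 52.5 and 14.8 to 37.0 TPM in TOV21G, and at most at 0.63 and 1.39 TPM in PA-1. WT1 went the other way, at 8.53 to 13.1 TPM in PA-1 and 0.69 to 1.91 TPM in TOV21G. CALB2 and LHX9 did not exceed 1.34 and 0.49 TPM. Blood markers summed to at most 0.64 TPM. Several marker sums moved with the hairpins besides the clear cell one. The fibroblast sum went from 92.0 in the control to 147 and 194 TPM in PA-1 and from 79.0 to 212 and 197 TPM in TOV21G, with THY1 below its control in TOV21G and PDGFRB in PA-1. The surface epithelium sum went from 448 to 515 and 674 TPM in PA-1 and from 245 to 478 and 419 TPM in TOV21G, and AFP from 0.34 to 7.98 and 6.03 TPM in PA-1. Their part in the hairpin comparisons was not tested.

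Of the 9 genes that could be tested between the lines, 7 differed: H19, MEG3, DLK1, MEST, GRB10 and PLAGL1 were higher in PA-1, and PEG10 was higher in TOV21G. IGF2 and PHLDA2 did not pass the test, and PEG3 had no counts. The test was edgeR's quasi-likelihood F test on the 3 libraries of each line, with p-values adjusted over all 16855 tested genes and called under 0.05. In this comparison 47.2% of all tested genes were called, 23.4% higher and 23.8% lower in PA-1, so being called is common between these lines. DLK1 and MEG3 passed the filter on low counts through PA-1 alone, so a higher level there was largely fixed by the filter. In bulk RNA, fewer cells that express a gene and less RNA per cell cannot be told apart. In CPM the libraries of the lines did not overlap for these 7 genes, as for 60.2% of all tested genes (30.8% with PA-1 higher and 29.4% with PA-1 lower). The median log2 difference of the 9 was 2.00, against -0.03 over all tested genes. Each line's 3 libraries include the knockdowns, so their spread holds the hairpin effects too. The labels do not say whether they were separate cultures, so the spread behind a p-value may be technical.

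**Figure D1:**
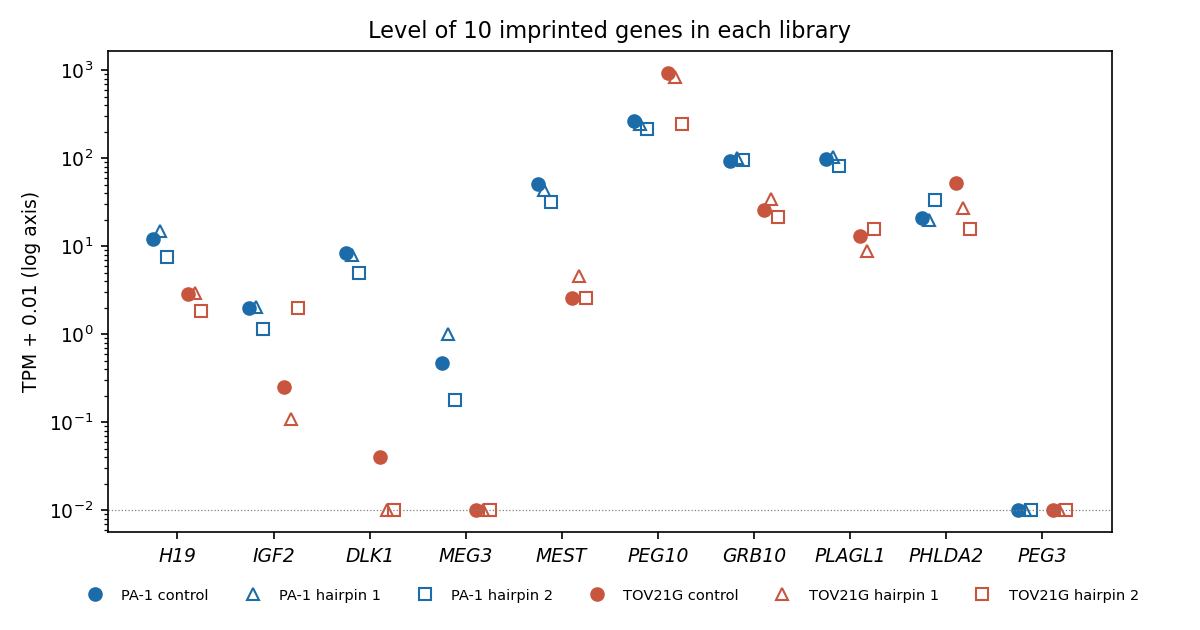
TPM plus 0.01 (log axis) of the 10 imprinted genes in each of the 6 libraries, with filled circles for controls, triangles for hairpin 1 and squares for hairpin 2, PA-1 in blue and TOV21G in red. PEG10 is the top gene in both lines, DLK1 and MEG3 sit at or near the line for 0 in TOV21G, and PEG3 is at 0 in all libraries.

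The first pair is IGF2 and H19 on chromosome 11. H19 (chr11:1995176-2001266 in RefSeq on GRCh38.p14, as for all genes given here, a long non-coding RNA that also carries a miRNA) stood at 12.0, 14.8 and 7.48 TPM in the PA-1 control, hairpin 1 and hairpin 2 libraries. In TOV21G, H19 stood at 2.82, 2.90 and 1.83 TPM in the same order. All PA-1 values were above all TOV21G values. H19 was higher in PA-1 by 2.00 on the log2 scale (SE 0.35, adjusted p = 0.00296). The TOV21G values of H19 rest on 30, 42 and 26 counts, and the transcript length that RSEM assigned to it differed between those libraries.

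IGF2 (chr11:2129117-2149566, the fetal growth factor of the pair, 127850 bases from H19) was low in both lines. It stood at 1.95, 2.04 and 1.14 TPM in PA-1, on 61, 63 and 44 counts. It stood at 0.24, 0.10 and 1.98 TPM in TOV21G, on 8, 3 and 66 counts. The TOV21G hairpin 2 library alone reached the PA-1 range, and the lines overlapped. The log2 difference for IGF2 was 0.94 (SE 0.93, adjusted p = 0.435), and without that library it was 3.17 (adjusted p = 0.0046). INS-IGF2, a read-through transcript that shares IGF2 sequence, and the antisense IGF2-AS were listed at 0 in all 6 libraries.

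The DLK1 and MEG3 pair on chromosome 14 was detected in PA-1 and at most at 1 count in TOV21G. DLK1 (chr14:100726892-100738224, a membrane protein that resembles Notch ligands and restrains differentiation) stood at 8.41, 7.96 and 4.89 TPM in PA-1, on 270, 251 and 195 counts. In TOV21G it had 1, 0 and 0 counts. Over the lines this was 716 counts against 1, a ratio of 625 with a 95% counting interval of 112 to 24730 (adjusted p = 5.05e-05). MEG3 (chr14:100826108-100861026, a maternally expressed long non-coding RNA 87883 bases from DLK1) was far less abundant, at 0.46, 1.00 and 0.17 TPM in PA-1 on 13, 29 and 2 counts. There were 0 MEG3 counts in each of the 3 TOV21G libraries. With the floor of 3 counts over the TOV21G libraries, MEG3 was at least 12.8-fold higher in PA-1 (adjusted p = 0.0276). The hairpin 1 library gave 29 of its 44 counts, and without it, a setting added after seeing the data, MEG3 was at least 6.39-fold higher. PA-1 hairpin 2 had 2 counts, under the floor. That call was lost with 1 mean per group (adjusted p = 0.0783), without the PA-1 control (0.0613), without PA-1 hairpin 1 (0.0751), without the TOV21G control (0.053) and without TOV21G hairpin 1 (0.0584). Of the other transcripts of the cluster, MEG8 had 1 count over all 6 libraries, and RTL1 had 1 to 17 counts per library and did not pass the test (log2 difference -1.79, adjusted p = 0.114). DIO3, which inactivates thyroid hormone, was present in both lines at 13 to 23 counts in PA-1 and 5 to 28 in TOV21G, and did not pass the test either (-0.30, adjusted p = 0.727).

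PEG10, MEST and PEG3 are paternally expressed genes that code for proteins of differing kinds. PEG10 (chr7:94656325-94669695), which derives from a retrotransposon and acts in the placenta, was the most abundant of the 10 in both lines. It stood at 265, 247 and 213 TPM in PA-1 and at 937, 835 and 243 TPM in TOV21G. In TPM the TOV21G hairpin 2 library was inside the PA-1 range and the other TOV21G libraries were far above it, while in CPM it lay just above (808 against at most 771). PEG10 was lower in PA-1 by a log2 difference of -1.60 (SE 0.43, adjusted p = 0.0182). The call was lost without the PA-1 hairpin 1 library (adjusted p = 0.0606), PA-1 hairpin 2 (0.0603), the TOV21G control (0.0513) or TOV21G hairpin 1 (0.0527), with log2 differences from -1.22 to -1.59 in these fits.

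MEST (chr7:130486175-130506465, a hydrolase-like protein of the mesoderm) stood at 50.5, 43.2 and 32.0 TPM in PA-1. In TOV21G it stood at 2.58, 4.62 and 2.55 TPM, on 44, 71 and 43 counts. The groups were far apart, with a log2 difference of 3.54 (SE 0.30, adjusted p = 9.7e-05). PEG3 (chr19:56810082-56840726), a zinc finger gene, had 0 counts in all 6 libraries, as did its neighbours ZIM2 and MIMT1. PEG3 was therefore not tested, and 0 counts allow up to 0.153 to 0.202 CPM per library.

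GRB10, PLAGL1 and PHLDA2 act on growth signalling, transcription and placental size. GRB10 (chr7:50590068-50793453), an adaptor that restrains insulin and IGF receptor signalling, stood at 92.7, 101 and 95.0 TPM in PA-1 and at 26.0, 34.4 and 21.7 TPM in TOV21G. It had the narrowest spread of the 10 in PA-1, with a highest value 1.09 times the lowest. The log2 difference was 1.67 (SE 0.17, adjusted p = 0.000232). PLAGL1 (chr6:143940300-144064599), a paternally expressed zinc finger transcription factor, stood at 99.1, 104 and 82.3 TPM in PA-1 and at 13.1, 8.85 and 15.6 TPM in TOV21G, a log2 difference of 2.78 (SE 0.28, adjusted p = 0.000228). Neither gene overlapped between the lines. PHLDA2 (chr11:2928273-2929420), a maternally expressed pleckstrin-homology protein that limits placental growth, stood at 20.7, 19.6 and 33.3 TPM in PA-1 and at 51.9, 27.1 and 15.6 TPM in TOV21G. The highest and the lowest of its 6 values were both in TOV21G, and PHLDA2 did not pass the test between the lines (log2 difference -0.54, SE 0.47, adjusted p = 0.373).

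By mean TPM the order in PA-1 was PEG10, GRB10, PLAGL1, MEST, PHLDA2, H19, DLK1, IGF2, MEG3 and PEG3. The ranges of the 3 libraries overlapped for GRB10 and PLAGL1, for MEST and PHLDA2, and for H19 and DLK1. Within each library H19 was above DLK1, while the order of the other pairs changed between libraries. The order of these neighbours was not tested. In TOV21G the order was PEG10, PHLDA2, GRB10, PLAGL1, MEST, H19, IGF2 and DLK1, followed by MEG3 and PEG3 at 0. There the ranges overlapped for PHLDA2 and GRB10, for MEST and H19, and for H19 and IGF2. The 3 genes whose log2 CPM followed PEG10 most closely over the 6 libraries were NDUFS8, a subunit of mitochondrial complex I (Pearson r 0.9983), the kinase CDK5 (0.9953) and MRPS5 of the mitochondrial ribosome (0.9941). These correlations share the 6 libraries and were picked as the highest of all tested genes.

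Neighbouring genes differed between the lines in the same direction as some of the 10 and not as others. The list of neighbours held 39 genes, of which 23 passed the filter and 14 were called between the lines (60.9%, against 47.2% of all tested genes), 6 higher and 8 lower in PA-1, with a median log2 difference of -0.30. Of these COBL (0 counts in TOV21G), HYMAI (2 to 4) and MESTIT1 (0 to 2) passed the filter through PA-1 alone. SLC22A18AS, at 0 to 1 counts in PA-1, passed it through TOV21G alone. Beside MEST, COPG2 on the opposite strand was higher in PA-1 by 2.14 (SE 0.24, adjusted p = 0.000345), at 107 to 141 TPM against 17.6 to 31.1 TPM. MESTIT1, an RNA antisense to MEST, and CEP41 were also higher in PA-1 (log2 differences 4.46 and 1.29). CPA4, farther along in the same cluster, went the other way without passing the test (-3.05, SE 1.46, adjusted p = 0.121). HYMAI, inside the PLAGL1 locus, was higher in PA-1 by 2.98 (SE 0.49, adjusted p = 0.00217), on 28 to 35 counts against 2 to 4. The strand setting of the counting is not given in the sources used here, so MEST, MESTIT1 and COPG2, PLAGL1 and HYMAI, and H19 and the overlapping MRPL23 are less certain than other genes.

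SGCE, a sarcoglycan gene that starts 191 bases from PEG10 and is also paternally expressed, was lower in PA-1 (log2 difference -1.54, SE 0.18, adjusted p = 0.000446). Its values were 33.9, 34.7 and 29.3 TPM in PA-1 and 82.6, 76.0 and 93.2 TPM in TOV21G. PON2 (-2.42), PPP1R9A (-0.86) and TFPI2 (-3.66) on the same arm were lower in PA-1 too, and CASD1 did not pass the test (0.13). Around PHLDA2, the cell cycle inhibitor CDKN1C was lower in PA-1 at 1.14 to 4.32 TPM against 11.7 to 21.9 TPM (log2 difference -2.68, adjusted p = 0.00491). SLC22A18 was lower by a log2 difference of -3.65 (adjusted p = 0.000137) and the non-coding KCNQ1OT1 by -1.71 (adjusted p = 0.00395). In the same cluster OSBPL5 was higher in PA-1 (0.92, adjusted p = 0.0238), and NAP1L4 did not pass the test (0.73, adjusted p = 0.0942). COBL, 222758 bases from GRB10, had 542 to 1019 counts in PA-1 and 0 in TOV21G, and was at least 662-fold higher in PA-1.

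**Figure D2:**
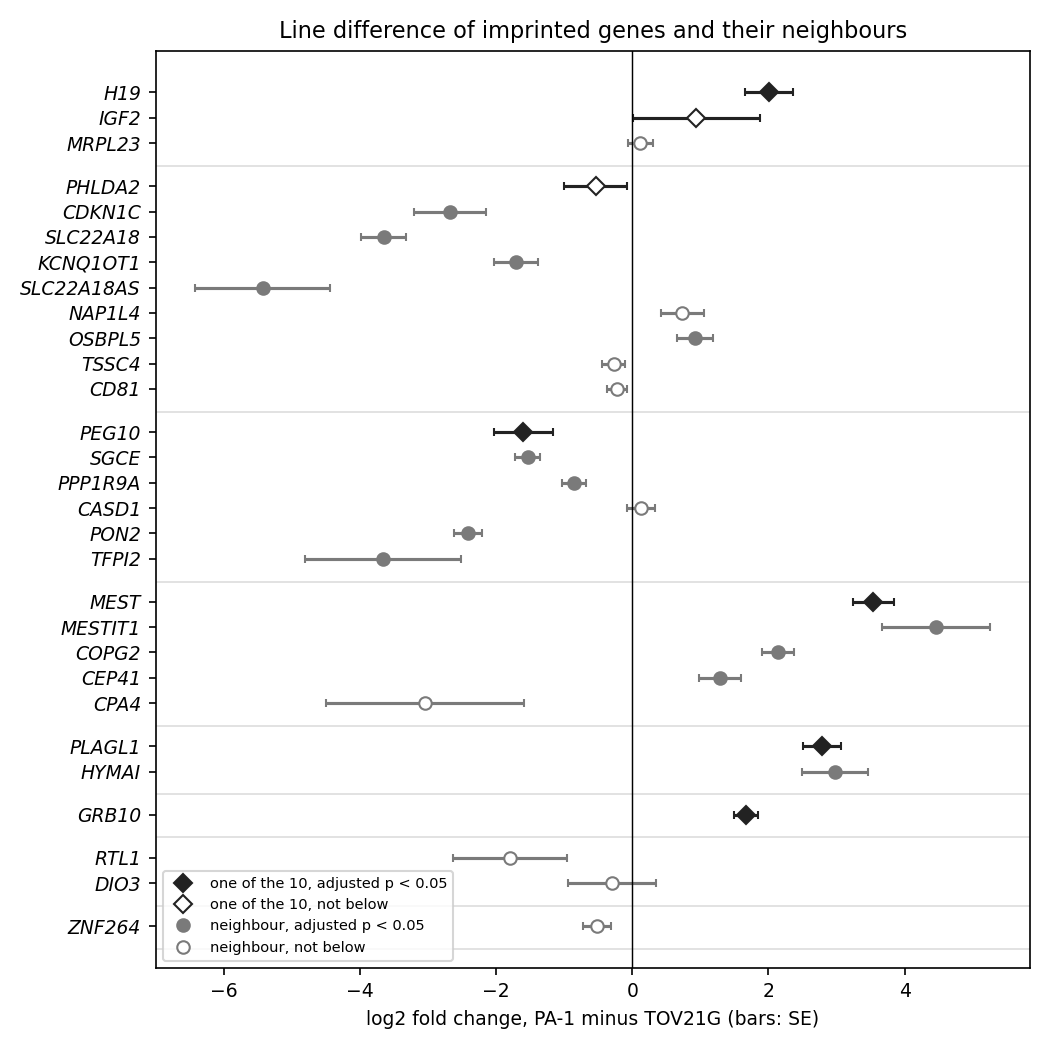
Log2 fold change of PA-1 minus TOV21G (bars show its SE) for imprinted genes (diamonds) and neighbours (circles), grouped by locus, filled where the adjusted p is under 0.05. MEST, MESTIT1, COPG2, CEP41, PLAGL1, HYMAI and GRB10 lie to the right, PEG10, SGCE, PPP1R9A, PON2, TFPI2, CDKN1C and SLC22A18 to the left; all tested neighbours but COBL are drawn, and DLK1, MEG3 and COBL are not because their TOV21G libraries had 0 or 1 counts.

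Other imprinted genes went both ways. Of 40 on the list, 38 were in the files, 29 were tested, 11 were called higher in PA-1 and 9 lower (69.0% called, against 47.2% of all tested genes, 23.4% higher and 23.8% lower), with a median log2 difference of 0.11. The called genes include 4 with 0 counts in TOV21G (NDN, MAGEL2, MKRN3 and GPR1) and 2 with 0 in PA-1 (PAX8-AS1 and ATP10A), which passed the filter through 1 line only. Of the Prader-Willi region of chromosome 15, NDN (37.5 to 40.9 TPM in PA-1) and MKRN3 (9.14 to 10.5 TPM) had 0 counts in TOV21G, and were at least 441-fold and 142-fold higher in PA-1. The region was not at 0 throughout in TOV21G. SNRPN, SNURF and SNHG14 stood there at 33.9 to 113, 55.2 to 107 and 6.01 to 7.88 TPM. These genes were higher in PA-1 too (log2 differences 1.63, 1.51 and 2.28), and UBE3A did not pass the test (0.23). In the other direction PAX8-AS1 stood at 53.6 to 56.3 TPM in TOV21G and had 0 counts in PA-1, at least 799-fold higher in TOV21G. NLRP2 was at 24.8 to 45.1 TPM in TOV21G and at most at 0.13 TPM in PA-1. It had 2 to 3 counts per PA-1 library, so it too passed the filter through 1 line only. ERAP2, HERC3 and SLC22A3 were lower in PA-1 (-3.67, -1.34 and -2.51), and BLCAP did not pass the test (-0.36).

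Of 24 factors that place, keep or remove imprint methylation, 17 were tested, 10 were called higher in PA-1 and 2 lower, beside 23.4% and 23.8% of all tested genes, with a median log2 difference of 0.86. The 10 include NLRP7, at 0 counts in TOV21G, and ZFP57, at 1 count there, which passed the filter through PA-1 alone. The maintenance pair UHRF1 and DNMT1 was higher by 2.06 and 1.15 (adjusted p = 0.00231 and 0.0214). The de novo methyltransferase DNMT3B was higher by 1.66, the demethylating enzyme TET1 by 2.53 and SMCHD1, a chromatin protein of X inactivation and imprinting, by 2.15. TET2, an enzyme of the same family as TET1, was lower in PA-1 (log2 difference -1.63, adjusted p = 0.000776). ZFP57 was scarce in both lines, at 0.23 to 1.16 TPM in PA-1 and at most 0.10 TPM in TOV21G. DNMT3B is also on the list of pluripotency markers.

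Of 26 partners of IGF2 and H19, 25 were tested, 12 were called higher in PA-1, 4 were called lower and 9 were not called, beside 23.4% and 23.8% of all tested genes called higher and lower, with a median log2 difference of 0.53. LIN28B, which blocks let-7 maturation, had 0 counts in TOV21G, passed the filter through PA-1 alone and was at least 3386-fold higher in PA-1. LIN28A was higher by 5.51 and HMGA1 by 2.81. IGF2BP1, a protein that binds IGF2 and H19 RNA, was at 202 to 247 TPM in PA-1 and 12.5 to 19.5 TPM in TOV21G (log2 difference 3.66, adjusted p = 3.63e-05). The receptors IGF1R and INSR were higher by 2.65 and 1.76, and IGF2R did not pass the test. NEDD4, a ubiquitin ligase that binds GRB10, was lower in PA-1 (-2.17, adjusted p = 0.00311).

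Against the control of its line, MEX3A knockdown moved none of the 9 tested imprinted genes past the threshold in PA-1, in TOV21G, in the mean of both lines or in the difference between the lines. The same fit called 0 of the 16855 genes in each contrast. The targeted MEX3A was thus not called either, at log2 differences of -1.512 in PA-1 (SE 0.285) and -1.096 in TOV21G (SE 0.288). The fit had 1 mean per line and target and 2 residual degrees of freedom, and the single control of a line was assumed to vary as the hairpins did. At an unadjusted p under 0.05 it held 2.57% of all tested genes in PA-1, 9.56% in TOV21G, 8.21% for the mean and 3.81% for the difference, and 0, 1, 0 and 0 of the imprinted genes. With DESeq2, 36, 226, 133 and 19 genes were called, and with the hairpin reagent as a block in edgeR 13, 36, 22 and 0, with 0 of the 10 genes among them in each.

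The 1 imprinted gene with an unadjusted p under 0.05 was PHLDA2 in TOV21G. It was at 17.7 CPM in the control, 8.18 CPM with hairpin 1 and 5.24 CPM with hairpin 2, on 272, 124 and 78 counts, so both hairpins were below the control. The log2 difference of PHLDA2 was -1.40 (SE 0.49, unadjusted p = 0.0339, edgeR adjusted p = 0.486). In PA-1 it was at 6.11, 5.46 and 9.82 CPM, with hairpin 2 above the control and hairpin 1 just below (log2 difference 0.33, SE 0.52, adjusted p = 1). The difference between the lines was -1.72 (SE 0.72, unadjusted p = 0.0616, adjusted p = 1). PHLDA2 in TOV21G was also the 1 gene of the 10 that differed at least 2-fold from the control with both hairpins, by -1.10 and -1.73 in log2 CPM. Of all tested genes in TOV21G, 3.36% were lower by 2-fold or more with each hairpin and 4.26% higher. In PA-1, where none of the 10 did so, the shares were 0.682% and 3.36%. These pairs share 1 control and have no test. In deposited TPM the hairpin 1 difference was smaller, -0.93.

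CDKN1C, the neighbour 42497 bases from PHLDA2, was at 21.9, 13.4 and 11.7 TPM in the TOV21G control, hairpin 1 and hairpin 2 libraries, and at 2.10, 1.14 and 4.32 TPM in PA-1. It did not pass the test in TOV21G (log2 difference -0.99). PEG10 and SGCE, whose starts are 191 bases apart, stood apart in TOV21G with hairpin 2. PEG10 was at 25.9% of the control's TPM there, and SGCE went from 82.6 to 93.2 TPM. With hairpin 1 PEG10 was at 89.0% of the control. The hairpins thus differed widely for PEG10, by -0.35 and -1.93 in log2 CPM, and the fitted log2 difference was -0.93 (SE 0.61, adjusted p = 0.655). Without the TOV21G hairpin 1 library PEG10 was called at -1.93 (adjusted p = 0.0245), with 1489 genes called in that fit, in which the arm held 1 sample assumed to vary like the other groups. In PA-1 PEG10 stood at 93.2% and 80.4% of the control's TPM.

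**Figure D3:**
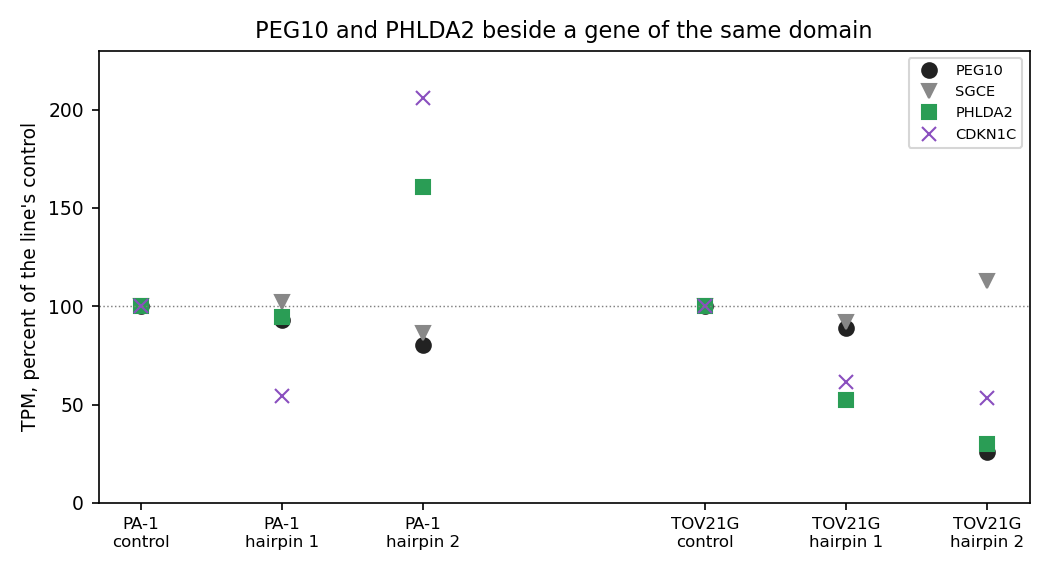
TPM as a percent of the control of the same line for PEG10, SGCE, PHLDA2 and CDKN1C in each library. In TOV21G with hairpin 2 PEG10 is at 25.9% and PHLDA2 at 30.0% of the control.

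None of the remaining genes passed the test, and some had few counts. GRB10 was closest to its control in PA-1, by 0.05 and 0.04 in log2 CPM with hairpins 1 and 2. PLAGL1 in TOV21G went below the control with hairpin 1 and above it with hairpin 2, by -0.78 and 0.26. IGF2 in TOV21G went from 8 counts in the control to 3 and 66, a log2 difference of 2.14 (SE 1.72, adjusted p = 0.713). MEG3 in PA-1 had 13, 29 and 2 counts. DLK1 in PA-1 was below its control with both hairpins, by -0.16 and -0.77, with a log2 difference of -0.44 (SE 0.44, adjusted p = 1). MEST was below its control with both hairpins in PA-1 (log2 difference -0.48, SE 0.36, adjusted p = 1), and in TOV21G the log2 difference was 0.41 (SE 0.42). H19 lay on either side of the control in both lines, from 7.48 to 14.8 TPM in PA-1 and from 1.83 to 2.90 TPM in TOV21G.

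Over the 9 tested genes in PA-1, both hairpins were above the control for 1, below it for 4 and on either side for 4. Of all tested genes 33.8% were above and 36.5% below with both. In TOV21G 1 was above, 3 below, 4 on either side and MEG3 at 0 throughout, where the 3 include DLK1 on 1 count and the 1 is MEST, whose hairpin 2 library differed from the control by 1 count. There 31.3% of all tested genes were above and 31.9% below with both. The 4 in PA-1 below were IGF2, DLK1, PEG10 and MEST. With hairpin 1 IGF2 was level with its control there, at -0.006 in log2 CPM and at 104.6% of the control's TPM.

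**Figure D4:**
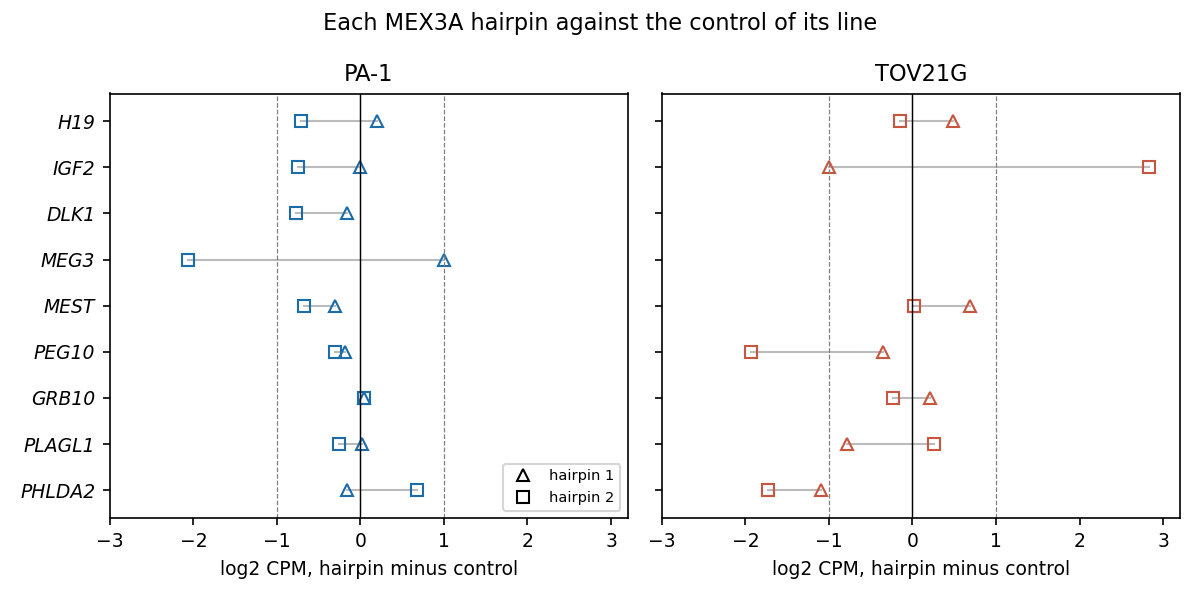
Difference in log2 CPM (prior count 2) of each MEX3A hairpin from the control of its line for 9 imprinted genes, with triangles for hairpin 1, squares for hairpin 2 and dashed lines at 2-fold. PHLDA2 in TOV21G is past 2-fold with both hairpins, PEG10 with hairpin 2; MEG3 and DLK1 are not drawn in TOV21G and PEG3 in neither line.

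Among the neighbours and pathway genes, 0 were called in either line by edgeR. TFPI2, a protease inhibitor gene 765571 bases from PEG10 and also on the list of clear cell markers, had the smallest p of the neighbours in both lines. It stood at 3.75, 24.0 and 62.0 TPM in PA-1 and at 40.8, 583 and 435 TPM in TOV21G, above the control with both hairpins in each. The log2 differences of TFPI2 were 3.50 (SE 0.74, adjusted p = 1) and 3.55 (SE 0.72, adjusted p = 0.382). DESeq2 called it in both lines (adjusted p = 2.4e-05 and 2.19e-06), and the fit with the reagent as a block called it in TOV21G (0.0432). CPA4 stood at 0.06, 2.27 and 0.70 TPM in PA-1 and at 0.30, 2.05 and 19.1 TPM in TOV21G, where DESeq2 called it (adjusted p = 0.0223) and edgeR did not (0.506). KCNQ1OT1 stood at 0.89, 1.55 and 2.17 TPM in TOV21G (log2 difference 1.00, adjusted p = 0.505). Of the maintenance factors UHRF1 stood at 23.5, 12.4 and 10.5 TPM in TOV21G (log2 difference -1.12, adjusted p = 0.382). DNMT1 stood at 69.7, 47.4 and 27.2 TPM there (-1.01, adjusted p = 0.471). NEDD4 stood at 35.6, 112 and 87.6 TPM in TOV21G (1.44, adjusted p = 0.382), and DESeq2 called it there (adjusted p = 0.00143). INSR in TOV21G (-0.81, adjusted p = 0.434) and HES1 in PA-1 (-0.69, adjusted p = 1) did not pass the test.

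Of the other imprinted genes, ERAP2, a peptidase that trims antigens, stood at 0.95, 2.74 and 3.47 TPM in PA-1 (log2 difference 2.07, edgeR adjusted p = 1), and DESeq2 called it there (0.0496). BLCAP stood at 27.7, 70.7 and 67.5 TPM in TOV21G (1.24, edgeR adjusted p = 0.382), where DESeq2 called it (0.0491). HERC3 in PA-1 (0.46, adjusted p = 1) and SLC22A3 in TOV21G (-1.50, adjusted p = 0.467) did not pass in edgeR. NLRP7 in PA-1 had 2, 31 and 102 counts (edgeR adjusted p = 1).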

How the data were processed

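Per the file headers, the authors deposited 1 RSEM table per library with expected counts, TPM, FPKM and transcript lengths per gene; FPKM was not used. Per the submitters' processing notes, the tools were cutadapt 1.12, STAR 2.5.3a, RSEM 1.2.31 and edgeR 3.26.8 with hg38; the role of edgeR is not given. The expected counts, as deposited, were rounded and fitted with edgeR 4.0.16 (R 4.3.3): TMM scaling, filterByExpr on the 4 groups (16855 of 39282 genes kept), quasi-likelihood F tests and Benjamini-Hochberg adjustment with a threshold of 0.05. SE is the size of the log2 fold change over the root of F. The line comparison used 3 libraries per line (4 residual degrees of freedom), and the knockdown fit 4 group means. Hairpin differences are in log2 CPM (prior count 2). The deposited TPM was used for levels. Both fits were tested on simulated data with less spread than these libraries had. Changes were placed only in genes above a minimum mean count, which leaves out genes such as MEG3. For true log2 changes of 1 and 2, the line fit called 83% and 100% of the changed genes. The knockdown fit, with changes placed in PA-1, called 32% and 97%, so it can miss many 2-fold changes. At the spread of these libraries, and for genes with few counts, the shares may be lower.

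The same reagents were used in both lines. Deviations from the line means correlated across lines by 0.221 for the controls, 0.175 for hairpin 1 and 0.269 for hairpin 2, over genes. The main fits left this pairing out, and the reagent entered as a block only in an alternative fit. Between the lines that fit called 8659 genes, against 7957 in the main fit.

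Genes were named by a rule: all 10 imprinted genes, and from each other list up to 4 genes with the smallest p between lines and 2 in each knockdown contrast. Other genes, such as SGCE, CDKN1C, MESTIT1, HYMAI, CEP41, OSBPL5, DIO3, IGF1R and ZFP57, were chosen after their values were seen. The imprinted genes and the lists were chosen with earlier results of these data known. Alternatives were DESeq2 1.42.0, its size factors, no filter, the block, other scales, 1 mean per group and leaving out each library.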

Additional observations from a re-analysis of the deposited data

Results flagged for a closer look

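MEST was below the PA-1 control with both hairpins (-0.30 and -0.68 in log2 CPM) and above the TOV21G control with both (0.69 and 0.01), which is why it is listed, although hairpin 2 in TOV21G was level with its control. The knockdown effect in TOV21G minus that in PA-1 was 0.88 (SE 0.56, unadjusted p = 0.174, edgeR adjusted p = 1) and did not pass the test. The TOV21G values rest on 44, 71 and 43 counts, and hairpin 2 there was 1 count below its control and at 98.8% of it in TPM.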

How the results depend on the processing

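Between the lines, 7 imprinted genes were called in edgeR, with DESeq2, with DESeq2's size factors, without the filter and with the replicate block. It was 6 with 1 mean per group and 5 to 8 when each library was left out in turn. DLK1, MEST, GRB10, PLAGL1 and H19 were called in every fit run, with adjusted p up to 0.0018, 0.00143, 0.00395, 0.00433 and 0.0169. DLK1 passed the filter on low counts through PA-1 alone, so its direction was largely fixed in the filtered fits and its calls there add no separate support. PHLDA2 between the lines ran from -0.86 to 0.087 in log2 difference over the fits run, and IGF2 from 0.41 to 3.17. Scaling by DESeq2's size factors moved the median of all genes by at most 0.009. Single genes moved somewhat more, such as GRB10 for the knockdown in PA-1, from 0.042 to 0.028.

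For the knockdown, each hairpin library was left out in turn, which leaves 1 hairpin in that line. The single control of each line could not be left out, so dependence on it was not checked. Without TOV21G hairpin 1, the log2 difference of PEG10 was -1.93 in TOV21G and -1.09 in the mean of both lines. DESeq2 called 36, 226, 133 and 19 genes in PA-1, TOV21G, the mean and the difference, and the replicate block 13, 36, 22 and 0, with none of the 10 genes. The block changed no call of the 10. The direction turned for GRB10 in TOV21G without the filter (-0.021) and with the replicate block (-0.007), and for MEG3 in PA-1 with the block (-0.88). Over the fits run, leaving out 1 library included, ranges in PA-1 were -2.92 to 1.10 for MEG3, -0.73 to 0.20 for H19, -0.26 to 0.02 for PLAGL1 and -0.16 to 0.69 for PHLDA2. In TOV21G they were -0.16 to 0.50 for H19, -0.24 to 0.21 for GRB10, -0.79 to 0.26 for PLAGL1 and -1.36 to 3.07 for IGF2. The cause of these turns was not tested.

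The count of genes at least 2-fold from the control with both hairpins was 1, and 0 in log2 of TPM plus 0.1. With a prior count of 0.5, DLK1 in TOV21G (1 count against 0 and 0) would also pass. A gene with no more than 3 counts in a line was left out of this count, a rule chosen after seeing that value. Depth limits IGF2 in TOV21G (8, 3 and 66 counts), and MEG3 and DLK1 there, which had 0 or 1 counts.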
